A study of Homo sapiens with 9 samples.

Results

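Transcripts of the protease-activated receptors and of the plasminogen activation system were followed in AsPC-1 cells, an established human pancreatic adenocarcinoma line, whose STOML2 had been knocked down. The product of STOML2 is SLP-2, a stomatin family protein found in mitochondria. Genes were taken by the symbol that the platform annotation gives a row, for 9 named genes (F2R, F2RL1, F2RL2, F2RL3, F3, PLAU, PLAUR, PLAT and SERPINE2). Of these, 8 had 1 row each among 17687 genes with a symbol, and F2RL1 was not analysed here. The sh1 cells carried shRNA-1 of SLP-2 and the sh2 cells shRNA-2 of SLP-2, each inserted into the pBAsi-hU6 NEO plasmid, and the control cells carried the blank plasmid. Every line was selected with Geneticin over 3 weeks and grown from 1 single colony, so each group is 1 clone. Each group had 3 arrays, and nothing in the labels says that they came from separate cultures. The p-values therefore reflect only array-to-array spread inside 1 clone, and that spread may be technical. An effect of the clone and one of the shRNA cannot be told apart.

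Protease-activated receptors are G protein-coupled receptors that are switched on when a protease cuts their outer end and frees a tethered ligand. F2R (PAR1), F2RL2 (PAR3) and F2RL3 (PAR4) are cut by thrombin, the end product of the clotting cascade that tissue factor (F3) starts. Urokinase (PLAU), held at the cell surface by its receptor (PLAUR), and tissue plasminogen activator (PLAT) turn plasminogen into plasmin, which degrades fibrin and matrix. SERPINE2 (protease nexin-1) inhibits thrombin and both activators. In pancreatic cancer, tissue factor and urokinase are known for their ties to thrombosis and invasion.

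Promoter windows from RefSeq on GRCh38.p14 are shown for the 4 genes that rose in at least 1 line, because the results turn on them. Windows were found for 6 of the 8 measured genes, and each runs from 250 bases before to 50 bases after a transcript start, 5′ to 3′ on the strand of the gene. Capitals mark the word TGAGTCA, which binds AP-1, a dimer of FOS and JUN family proteins. The windows are F2RL2 at chr5:76623354-76623653, F3 at chr1:94541710-94542009, PLAUR at chr19:43670120-43670419 and the outer of both SERPINE2 starts at chr2:224038591-224038890, all on the minus strand.
F2RL2: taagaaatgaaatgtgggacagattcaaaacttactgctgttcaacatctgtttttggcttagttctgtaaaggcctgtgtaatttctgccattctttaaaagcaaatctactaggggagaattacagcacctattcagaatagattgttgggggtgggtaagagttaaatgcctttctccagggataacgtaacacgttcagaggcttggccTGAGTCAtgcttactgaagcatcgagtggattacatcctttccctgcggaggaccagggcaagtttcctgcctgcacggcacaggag
F3: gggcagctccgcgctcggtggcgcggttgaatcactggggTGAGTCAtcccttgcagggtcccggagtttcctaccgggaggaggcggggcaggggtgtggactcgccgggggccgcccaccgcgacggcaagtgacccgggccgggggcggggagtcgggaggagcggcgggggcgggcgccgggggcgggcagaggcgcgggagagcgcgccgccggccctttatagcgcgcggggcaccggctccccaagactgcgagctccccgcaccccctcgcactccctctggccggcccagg
PLAUR: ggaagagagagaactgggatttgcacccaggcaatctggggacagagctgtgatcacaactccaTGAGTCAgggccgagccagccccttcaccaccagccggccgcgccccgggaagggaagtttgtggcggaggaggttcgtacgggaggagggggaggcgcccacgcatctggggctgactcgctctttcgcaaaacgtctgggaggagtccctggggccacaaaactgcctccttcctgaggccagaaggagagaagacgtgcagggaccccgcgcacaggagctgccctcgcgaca
SERPINE2: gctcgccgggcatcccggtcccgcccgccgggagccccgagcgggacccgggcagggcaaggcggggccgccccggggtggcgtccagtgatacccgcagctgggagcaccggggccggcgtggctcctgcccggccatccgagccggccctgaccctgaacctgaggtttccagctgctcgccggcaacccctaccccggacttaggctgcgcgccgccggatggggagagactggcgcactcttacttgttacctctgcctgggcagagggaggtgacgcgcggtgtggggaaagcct
The word TGAGTCA, searched with its reverse complement TGACTCA, began 37 bases before the start of F2RL2, 210 before that of F3 and 186 before that of PLAUR. It was in neither window of SERPINE2 or PLAU nor in that of F2RL3. Of 35116 windows of this length in the RefSeq table, 4.95% held it. The GC box GGGCGG or its reverse complement occurred 4 times in the F3 window and 2 times in the SERPINE2 window shown, and it was in neither the F2RL2 nor the PLAUR window, while 45.0% of all windows held it. The word TATAAA, searched with its reverse complement TTTATA, was found in the F3 window as the reverse complement, beginning 28 bases before the start (11.5% of all windows held either), and the palindrome TGACGTCA was in none of the members' windows (1.85% of all windows). G and C made up 44.7% of the F2RL2 window and 77.3% of the F3 window. These matches describe the letters and do not show binding.

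The arrays gave log2 signals for 21448 rows. Array medians lay between 6.57 and 6.65, and row means below their lower quartile, 4.21, were read as near background. This cut is a convention. In the control, the endothelial marker VWF averaged 6.09 and the leukocyte marker CD3E 4.78, both above it. Signals somewhat above the cut may therefore also be near background. STOML2 averaged 8.32 ± 0.12 (SD, n = 3) in sh1 and 7.73 ± 0.34 in sh2, against 13.67 ± 0.03 in the control. Of 8 epithelial markers, all measured, KRT8 and KRT18 rose in both lines, KRT19 fell in both, EPCAM rose in both, and CDH1 rose in sh1 and fell in sh2. The summed log2 signal of the epithelial markers was 94.33 to 95.33 in sh1 arrays, 89.64 to 90.3 in sh2 arrays and 87.28 to 87.69 in control arrays. Of 5 measured fibroblast markers, COL1A1 and COL1A2 fell in both lines, with sums of 27.93 to 29.09 in sh1, 27.95 to 28.0 in sh2 and 32.31 to 32.96 in the control, and LUM lay under the lower quartile in every group. None of 4 endothelial markers passed in either line, and 2 of them lay under the lower quartile in every group. Of 5 measured leukocyte and platelet markers PTPRC fell in both lines and CD68 in sh1. PTPRC averaged 3.94 in sh1 and 3.99 in sh2, under the lower quartile, so the size of its difference is uncertain. The part of these markers in the results below was not tested. All groups were clones of the same established cancer line, so these markers were read as transcript levels and not as shares of different cell types. Whether a difference in such bulk RNA lay in all cells of a clone or only in some was not tested.

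Across the 8 genes, each shRNA line was compared with the control to ask which of them moved with STOML2 knockdown. F2RL2, F3 and SERPINE2 rose in both lines, PLAUR rose in sh2, and none of the 8 fell in either line. In sh1, 3 of the 8 passed as higher (limma, adjusted p under 0.05 over all rows), where 9.76% of all rows did and 18.8% passed in either direction. In sh2, 4 of the 8 passed as higher, where 8.33% of all rows did and 16.3% passed in either direction. The 3 genes higher in both lines compare with 4.28% of all rows that were higher in both and 4.65% that were lower in both. The 8 genes were chosen with earlier results of these data known, so these shares describe them and do not test the set. The median log2 difference of the 8 genes was 0.30 in sh1 and 0.86 in sh2, and that of all genes was 0.02 and 0.01. Both comparisons use the same control arrays, so they are not independent of each other. Before adjustment, 4 of the 8 genes had a limma p under 0.05 in sh1 and 6 in sh2. At least 18.8% of all rows did so in sh1 and at least 16.3% in sh2, since rows that passed after adjustment are among them.

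**Figure D1:**
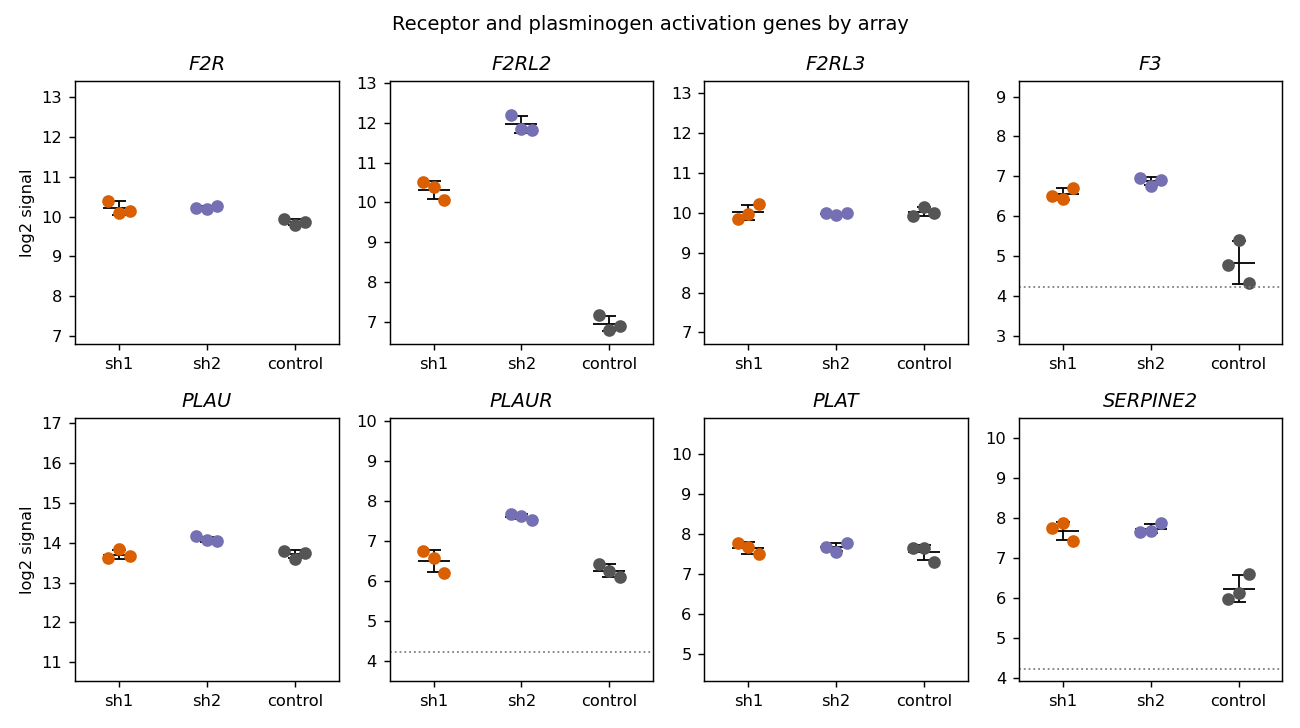
Log2 signal of the 8 measured genes in each array (points), with the mean and SD over 3 arrays per group (bar and whiskers), for sh1, sh2 and control from left to right. Every panel spans the same number of log2 units and the dotted line is the lower quartile of the row means. The sh1 and sh2 points of F2RL2, F3 and SERPINE2 lie above all control points, and PLAUR stands apart in sh2.

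Among the thrombin receptors, F2RL2 (PAR3) showed the largest difference of the 8 genes in each line. F2RL2 is known to serve as a cofactor that presents thrombin to other receptors, and its own signalling is weak. Its log2 signal was 10.50, 10.39 and 10.07 in the sh1 arrays, 12.19, 11.85 and 11.82 in the sh2 arrays, and 7.17, 6.80 and 6.90 in the control arrays. The 3 groups did not overlap, with sh2 highest and the control lowest. F2RL2 rose by 3.36 ± 0.16 (SE) in sh1, 10.3-fold (limma, adjusted p = 1.18e-07). It rose by 5.0 ± 0.16 in sh2, 31.9-fold (adjusted p = 5.68e-09). Among 17687 genes this was the 25th highest difference in sh1 and the 10th highest in sh2. Between the lines F2RL2 averaged 11.95 ± 0.21 (SD, n = 3) in sh2 and 10.32 ± 0.22 in sh1, a difference of 1.63 ± 0.16 (SE, adjusted p = 4.78e-05).

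F2R (PAR1), the main thrombin receptor of many cell types, did not pass in either line. F2R had log2 signals of 10.40, 10.08 and 10.15 in sh1, 10.22, 10.18 and 10.27 in sh2, and 9.93, 9.78 and 9.87 in the control. All 6 shRNA arrays lay above the control arrays, and the lines overlapped each other. Its difference was 0.35 in sh1 (95% interval 0.07 to 0.63, limma adjusted p = 0.0799), which did not pass. Nor did that of 0.36 in sh2 (0.09 to 0.64, adjusted p = 0.0759). Groups that lay wholly above the control were seen for 18.2% of all rows in sh1 and 17.1% in sh2. Under 17 of 18 other settings F2R passed in neither line (limma, adjusted p up to 0.254 in sh1 and 0.199 in sh2). The remaining setting corrected each array's value for the 40 nearest expressed genes, and there F2R passed in both lines. It then stood at 0.45 in sh1 (adjusted p = 0.0294), with 0.64 for sh2 (adjusted p = 0.00534). F2RL3 (PAR4), a receptor with a slow and lasting response to thrombin, had signals of 9.84 to 10.22 in sh1, of 9.95 to 9.99 in sh2 and of 9.93 to 10.15 in the control. The groups overlapped, and the differences were -0.02 in sh1 (95% interval -0.31 to 0.27) and -0.05 in sh2 (-0.34 to 0.24).

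F2RL2, F2R and F2RL1 lie close together on chromosome 5. F2RL2 spans positions 76615482 to 76623403 and F2R positions 76716126 to 76735770 (GRCh38.p14), with 92.7 kb between them, and F2RL1 begins 83.3 kb beyond F2R. F2RL2 lies within IQGAP2 (76403285 to 76708132), a scaffold protein gene on the opposite strand. IQGAP2 had log2 signals of 6.62, 6.63 and 6.40 in sh1, 5.70, 4.6 and 5.06 in sh2, and 4.77, 5.35 and 4.90 in the control. The rise of IQGAP2 in sh1 was 1.54 (limma, adjusted p = 0.000979). In sh2 it stood at 0.11 from the control (adjusted p = 0.829), below sh1 by a tested difference of -1.43 (adjusted p = 0.0027). Its order across the lines was thus not that of F2RL2, which was higher in sh2 than in sh1. Of 30 other measured genes that start within 3000 kb of the F2RL2 start, sh1 had 5 higher and 4 lower, and sh2 had 1 higher and 3 lower, where 18.8% of all rows passed in either direction in sh1 and 16.3% in sh2. Their highest differences were 1.54 in sh1 (IQGAP2) and 0.60 in sh2 (JMY). The 40 nearest expressed genes of F2RL2 had a median difference of -0.07 in sh1 and -0.25 in sh2.

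**Figure D2:**
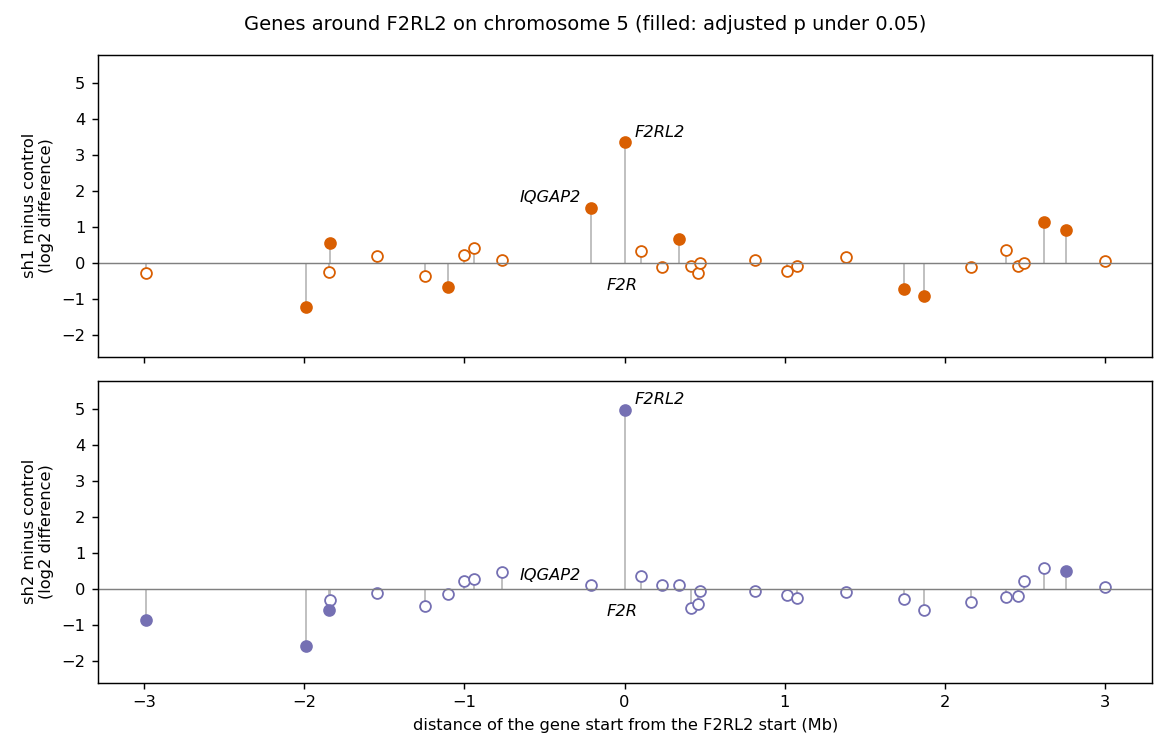
Log2 difference from the control of each measured gene by the distance of its start from that of F2RL2 on chromosome 5, in sh1 (upper panel) and sh2 (lower panel), with filled points at an adjusted p under 0.05. F2RL2 stands at 3.36 in sh1 and 5.0 in sh2, and no other gene shown exceeds 1.54.

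F3, the gene of tissue factor on chromosome 1 (94529173 to 94541759), rose in both lines. Tissue factor binds factor VII and so starts the formation of thrombin. F3 had log2 signals of 6.50, 6.44 and 6.72 in sh1, 6.97, 6.77 and 6.91 in sh2, and 4.78, 5.40 and 4.32 in the control. Every shRNA array lay above every control array, and all sh2 arrays lay above all sh1 arrays. F3 rose by 1.72 ± 0.22 (SE) in sh1, which is 3.29-fold (limma, adjusted p = 0.000227). In sh2 it rose by 2.05 ± 0.22, which is 4.14-fold (adjusted p = 7.82e-05). The difference of sh2 from sh1, 0.33 (95% interval -0.16 to 0.82), did not pass (adjusted p = 0.436). The control arrays of F3 had the widest spread of the 8 genes (SD 0.54) and their mean, 4.83, lay near the lower quartile of the rows. The nearest measured genes, ABCD3 and SLC44A3, differed by -0.08 and 0.29 in sh1 and by 0.25 and 0.15 in sh2, and none of these passed.

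Of the plasminogen activators, neither PLAU nor PLAT passed in any of the 3 comparisons. PLAU, which encodes urokinase, had log2 signals of 13.61, 13.83 and 13.66 in sh1, 14.16, 14.06 and 14.03 in sh2, and 13.80, 13.59 and 13.75 in the control. The sh2 arrays lay above all others, while sh1 and the control overlapped. The difference in sh2 was 0.37 (95% interval 0.10 to 0.64, adjusted p = 0.065) and that in sh1 was -0.01 (-0.28 to 0.26, adjusted p = 0.962). The sh2 value passed under 4 of 18 other settings, among them without rows under the lower quartile (adjusted p = 0.0427). PLAT, which encodes tissue plasminogen activator, had signals of 7.78, 7.67 and 7.49 in sh1, 7.68, 7.56 and 7.77 in sh2, and 7.66, 7.65 and 7.31 in the control. The PLAT groups overlapped, with differences of 0.11 in sh1 (95% interval -0.21 to 0.42) and 0.13 in sh2 (-0.18 to 0.44). PLAU lies on chromosome 10 (73908832 to 73917494), where the nearest measured genes CAMK2G and VCL differed by 0.03 and 0.12 in sh1 and by -0.01 and -0.07 in sh2. PLAU overlaps the long non-coding RNA C10orf55, and PLAUR and SERPINE2 also overlap annotated non-coding genes. Whether these arrays tell such overlapping transcripts apart was not tested.

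PLAUR, the urokinase receptor on chromosome 19 (43646095 to 43670169), rose in sh2. Its log2 signal was 6.74, 6.58 and 6.20 in sh1, 7.68, 7.62 and 7.54 in sh2, and 6.43, 6.24 and 6.10 in the control. The sh2 arrays lay above all others, and the sh1 arrays overlapped the control. PLAUR rose by 1.36 ± 0.16 (SE) in sh2, 2.56-fold (limma, adjusted p = 0.000118), and its difference in sh1 was 0.25 (95% interval -0.09 to 0.59, adjusted p = 0.33). The direct comparison gave 7.61 ± 0.07 (SD, n = 3) in sh2 and 6.51 ± 0.28 in sh1, a difference of 1.11 ± 0.16 (SE, adjusted p = 0.000688). CADM4, the nearest measured gene on 1 side of it, also rose, with differences of 0.63 for sh1 (adjusted p = 0.00784) and 0.51 for sh2 (0.0282), and IRGC on the other side did not pass in either line.

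SERPINE2, a secreted inhibitor of thrombin and urokinase on chromosome 2 (223975045 to 224039286), rose by a like amount in both lines. It had log2 signals of 7.75, 7.87 and 7.42 in sh1, 7.66, 7.68 and 7.87 in sh2, and 5.96, 6.13 and 6.61 in the control. All shRNA arrays lay above all control arrays, and the lines overlapped each other. SERPINE2 rose by 1.45 ± 0.18 (SE) in sh1, which is 2.73-fold (limma, adjusted p = 0.000178). The rise in sh2 was 1.5 ± 0.18, which is 2.83-fold (adjusted p = 0.000166). The difference of sh2 from sh1 was 0.06, with a 95% interval of -0.34 to 0.46. Its nearest measured genes, MRPL44 and FAM124B, did not pass in either line.

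Set side by side, the lines differed at 2 of the 8 genes. F2RL2 and PLAUR were higher in sh2 than in sh1, where 5.73% of all rows were, and none of the 8 was called lower. Of all rows 11.3% passed in either direction. In 4 of the 8 (F2RL2, F3, PLAU and PLAUR) every sh2 array lay above every sh1 array, as in 13.1% of all rows. The other 6 differed by -0.03 (F2RL3) to 0.38 (PLAU), with adjusted p of 0.0722 or more. The PLAU difference between the lines passed under 4 of 18 other settings, among them quantile normalization (limma, adjusted p = 0.0441).

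**Figure D3:**
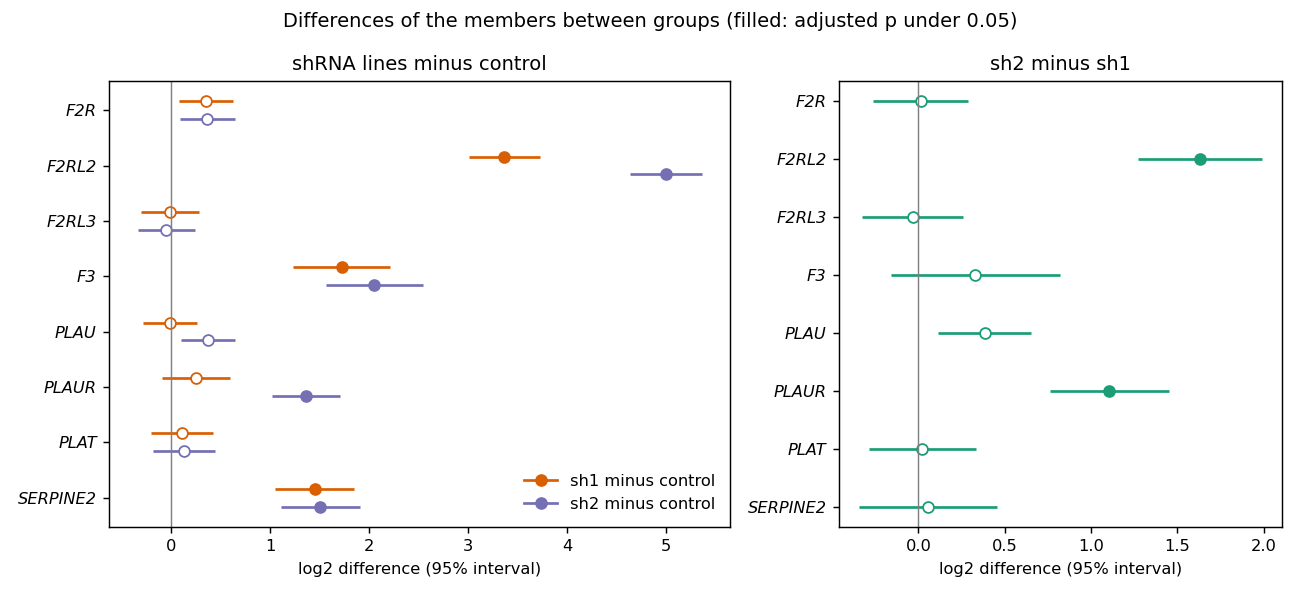
Log2 differences of the 8 genes with their 95% intervals from the limma model, for each shRNA line minus control (left) and for sh2 minus sh1 (right), filled where the adjusted p was under 0.05. F2RL2, F3 and SERPINE2 are filled in both lines, and F2RL2 and PLAUR in the comparison of the lines.

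For F2RL2, F3 and SERPINE2, the most similar other genes were sought by the smallest root mean square distance, over the 6 shRNA arrays, between log2 signals relative to the control mean, among 13412 genes above the lower quartile. The nearest genes of F2RL2 lay farther off than those of F3 and SERPINE2. EREG (an EGF receptor ligand) was nearest at 0.66 log2 units with differences of 3.04 in sh1 and 4.19 in sh2, followed by PARM1 at 0.71 and AGR2, a protein disulfide isomerase of secretory cells, at 0.87. The control mean of PARM1, 4.0, lay under the lower quartile, so its distance is uncertain. F3 was matched at 0.17 by GASK1B (1.74 and 2.21), at 0.22 by FLRT2, an adhesion protein (1.72 and 1.81), and at 0.25 by COL11A1, a fibrillar collagen chain (1.51 and 2.02). SERPINE2 was matched at 0.14 by RAB3IP, an exchange factor of Rab GTPases (1.44 and 1.58), at 0.19 by TCEA3 (1.34 and 1.62) and at 0.19 by the growth factor MDK (1.39 and 1.37). These distances describe the 6 arrays and say nothing of shared control.

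Most proteases that can cut these receptors did not pass in either line, and a few differed widely. In sh1, 3 of 27 measured proteases were higher and 2 lower. In sh2, 2 were higher and 1 lower. Among all genes 20.3% passed in either direction in sh1 and 17.5% in sh2. This list and those that follow were chosen with earlier results of these data known, so such shares describe them and do not test them. The median difference of the proteases was 0.04 in sh1 and 0.06 in sh2, and over all genes it was 0.02 and 0.01. Of the 27 proteases, 16 had a row mean at or above the lower quartile. The rest lay near background, where a change could be missed. MMP1, a collagenase known to cut PAR1 at a site of its own, had log2 signals of 7.93, 7.11 and 7.45 in sh1, 14.10, 13.56 and 13.67 in sh2, and 6.06, 5.91 and 4.95 in the control. The 3 groups did not overlap, with sh2 far highest. The rise was 1.86 in sh1 (limma, adjusted p = 0.000854). For sh2 it was 8.14, or 281-fold (adjusted p = 1.07e-08). The MMP1 control mean, 5.64, may be near background, so the sizes of both differences are uncertain. The PAR2-cutting membrane proteases TMPRSS2 and ST14 (matriptase) rose in sh1, by 3.92 and 3.79 (adjusted p = 1.60e-06 and 2.13e-07), while in sh2 they differed by -0.40 and 0.51 (adjusted p = 0.37 and 0.112). The control means of TMPRSS2 and ST14, 5.18 and 4.29, may also be near background. The lysosomal protease CTSS was lower in both, at -1.31 and -1.38 (adjusted p = 0.00185 and 0.00163). PRSS3 (mesotrypsin), chosen after its values were seen as the 1 protease called in opposite directions, stood at -0.80 in sh1 and at 1.45 in sh2, with adjusted p of 0.0331 and 0.00125. Its sh1 call was lost when any of 4 arrays was left out (adjusted p up to 0.123) and after correction for neighbours (-0.41, adjusted p = 0.215). Trypsinogen genes are close relatives, and whether they share signal in this row was not tested. The circulating factors did not pass in either line. Prothrombin (F2) averaged 2.74 in sh1, 2.85 in sh2 and 2.97 in the control, under the lower quartile in each. Factor VII (F7) averaged 5.97, 6.14 and 6.04 in the same order, and plasminogen (PLG) 5.07, 4.93 and 4.87. F7 and PLG may also lie near background, where a change could be missed.

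Genes that carry or end the receptor signal passed in both directions. With 24 measured, sh1 had 3 higher and 5 lower and sh2 had 5 higher and 2 lower, with median differences of 0.09 and 0.145. That is 33.3% called in sh1 and 29.2% in sh2, beside 20.3% and 17.5% of all genes. Of the 24, 22 lay at or above the lower quartile, where a larger share of rows passed. GNAI1, a G protein subunit, rose by 2.53 in sh1 and by 1.17 in sh2, while GRK2, a kinase that desensitises receptors, rose by 1.12 and 1.62 (adjusted p at most 0.00038). PLCB3, a phospholipase downstream of Gq, rose by 0.47 and 0.54 (adjusted p = 0.0284 and 0.0151), and GNA11, a Gq-type subunit, changed by -0.46 and -0.66 (adjusted p = 0.0454 and 0.00873). The GNA11 call in sh1 was lost under 10 of 16 settings at the same threshold, and its call in sh2 was lost after correction for neighbours (-0.33, adjusted p = 0.107). The PLCB3 call was lost when any of 4 arrays was left out in sh1 (adjusted p up to 0.105) and any of 3 in sh2 (up to 0.0626). ARRB1 (beta-arrestin 1), GRK5 and GNAQ passed in sh1 and not in sh2, at -1.44, -1.07 and -0.70 in sh1, and sh2 was higher than sh1 for each of them (adjusted p = 5.40e-06, 0.0268 and 0.0015). RGS2, which curbs Gq signalling, GNA12 and PLCB4 passed in sh2 and not in sh1, at 3.02, 1.01 and -1.40 in sh2, and each also differed between the lines (adjusted p = 5.66e-06, 0.000356 and 4.36e-05). PLCB4 averaged 3.83 in sh2, under the lower quartile, so the size of its difference is uncertain. RGS2 averaged 5.15 in the control, which may also be near background.

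Partners of plasminogen and of the urokinase receptor had more members that fell than rose. Among 22 measured, sh1 had 1 higher and 9 lower, sh2 had 2 higher and 7 lower, and 6 were lower in both lines. This is 45.5% called in sh1 and 40.9% in sh2, where all genes gave 20.3% and 17.5%, and 4.65% of all rows were lower in both. Their median difference was -0.26 in sh1 and -0.135 in sh2. MRC2, a collagen receptor that associates with the urokinase receptor, had log2 signals of 8.91, 8.83 and 8.93 in sh1, 9.23, 9.53 and 8.99 in sh2, and 10.89, 10.77 and 10.96 in the control. Both lines lay below the control, by -1.98 in sh1 and -1.62 in sh2 (limma, adjusted p = 3.10e-06 and 1.85e-05). The integrin chain ITGA3, a lateral partner of the urokinase receptor, changed by -1.64 and -1.20, LRP8 by -1.72 and -1.13, CD109 by -1.77 and -0.75, and ITGAV, a vitronectin receptor chain, by -0.61 and -0.65 (adjusted p at most 0.00992). ITGB1, ITGB3 and SUSD2 passed in sh1 and not in sh2, at -1.23, -0.72 and 1.66 in sh1. The lines themselves differed for ITGB1 and SUSD2 (adjusted p = 2.15e-05 and 0.00101), and the difference for ITGB3 did not pass (0.144). After correction for its neighbours ITGB1 was at -0.32 (adjusted p = 0.106) and no longer passed, and ITGB3 lost its call when any of 5 arrays was left out (adjusted p up to 0.137). VLDLR, a receptor that clears urokinase bound to its inhibitor, ITGA5 and the plasminogen receptor PLGRKT passed in sh2 and not in sh1, at 1.02, 0.96 and -0.69 in sh2. The lines differed for VLDLR and ITGA5 (adjusted p = 0.0443 and 0.0249), and the difference for PLGRKT did not pass (0.419). The calls of PLGRKT and VLDLR were lost when any of 3 and of 2 arrays was left out (adjusted p up to 0.126 and 0.0621).

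The inhibitors and anticoagulants moved in both directions. Among 21 measured, sh1 had 4 higher and 3 lower and sh2 had 4 higher and 2 lower, with median differences of 0.08 and 0.16. The share called was 33.3% in sh1 and 28.6% in sh2, against 20.3% and 17.5% of all genes. TFPI, the inhibitor of tissue factor with factor VII, had log2 signals of 14.18, 14.04 and 13.98 in sh1, 14.55, 14.84 and 14.48 in sh2, and 13.26, 13.48 and 13.31 in the control. Its groups did not overlap, and its rise of 0.72 in sh1 and of 1.27 in sh2 passed (limma, adjusted p = 0.00324 and 7.06e-05). TFPI2, a related secreted inhibitor of plasmin and trypsin, was higher by 0.72 and 1.69 (adjusted p = 0.0325 and 0.000194), and its sh1 call was lost when any of 5 arrays was left out (adjusted p up to 0.128). The TFPI2 control mean, 3.65, lay under the lower quartile, so the size of both differences is uncertain. SPINT1, an inhibitor of matriptase, rose by 5.96 and 0.66 (adjusted p = 2.31e-09 and 0.0273). Its sh2 call was lost when any of 4 arrays was left out (up to 0.114) and after correction for neighbours (0.46, adjusted p = 0.0837). The SPINT1 control mean, 5.99, may be near background. SERPINI1, neuroserpin, which inhibits tissue plasminogen activator in nerve tissue, changed by -0.69 and -1.14 (adjusted p = 0.0232 and 0.00137). Its sh1 call was lost without any of 4 arrays (up to 0.0934) and after correction for neighbours (-0.52, adjusted p = 0.0686). PROS1 (protein S), SERPING1 and GPC1 passed in sh1 and not in sh2, at -1.40, 1.15 and -0.81 in sh1. SERPING1 averaged 3.35 in sh2 and 3.17 in the control, both under the lower quartile, so the size of its difference is uncertain. PROCR, the protein C receptor, and SERPINC1 (antithrombin) passed in sh2 and not in sh1, at 0.64 and -0.63 in sh2. The lines differed for PROS1, SERPING1 and PROCR (adjusted p = 7.44e-05, 0.00647 and 0.00313), and the differences for GPC1 and SERPINC1 did not pass (0.602 and 0.0593). The SERPINC1 and GPC1 calls were lost when any of 8 and of 3 arrays was left out (adjusted p up to 0.154 and 0.119).

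Early transcripts that thrombin is known to induce did not rise together. Receptor signalling itself was not tested, and these levels do not show whether it differed. Among 22 measured, sh1 had 1 higher and 6 lower and sh2 had 1 higher and 3 lower, with median differences of -0.29 and -0.08. The share called was 31.8% in sh1, against 20.3% of all genes, and 18.2% in sh2, near the 17.5% of all genes. FOSL1, a subunit of AP-1, was the 1 called higher, with 0.81 in sh1 and 1.08 in sh2 (limma, adjusted p = 0.00419 and 0.000782). ATF3 had a larger difference in sh1, 1.67 ± 0.61 (SE), which did not pass (adjusted p = 0.0836), and stood at 0.23 in sh2 (0.863). DUSP1, a MAP kinase phosphatase, changed by -2.82 and -1.24, and TNFAIP3, a brake on NF-kappaB, by -0.87 and -1.41 (adjusted p at most 0.000632). VEGFA changed by -0.50 and -0.42 (adjusted p = 0.0109 and 0.0303), and after correction for its neighbours it stood at 0.35 and 0.37 (adjusted p = 0.0594 and 0.0578). The VEGFA call in sh2 was also lost when any of 5 arrays was left out (adjusted p up to 0.0944). The chemokine CCL2, KLF4 and HBEGF passed in sh1 and not in sh2, at -2.22, -0.97 and -0.82 in sh1. The lines differed for CCL2 (adjusted p = 3.67e-06), and the differences for KLF4 and HBEGF did not pass (0.0605 and 0.596). The HBEGF call was lost when any of 4 arrays was left out (adjusted p up to 0.0552) and after correction for neighbours (-0.42, adjusted p = 0.167).

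**Figure D4:**
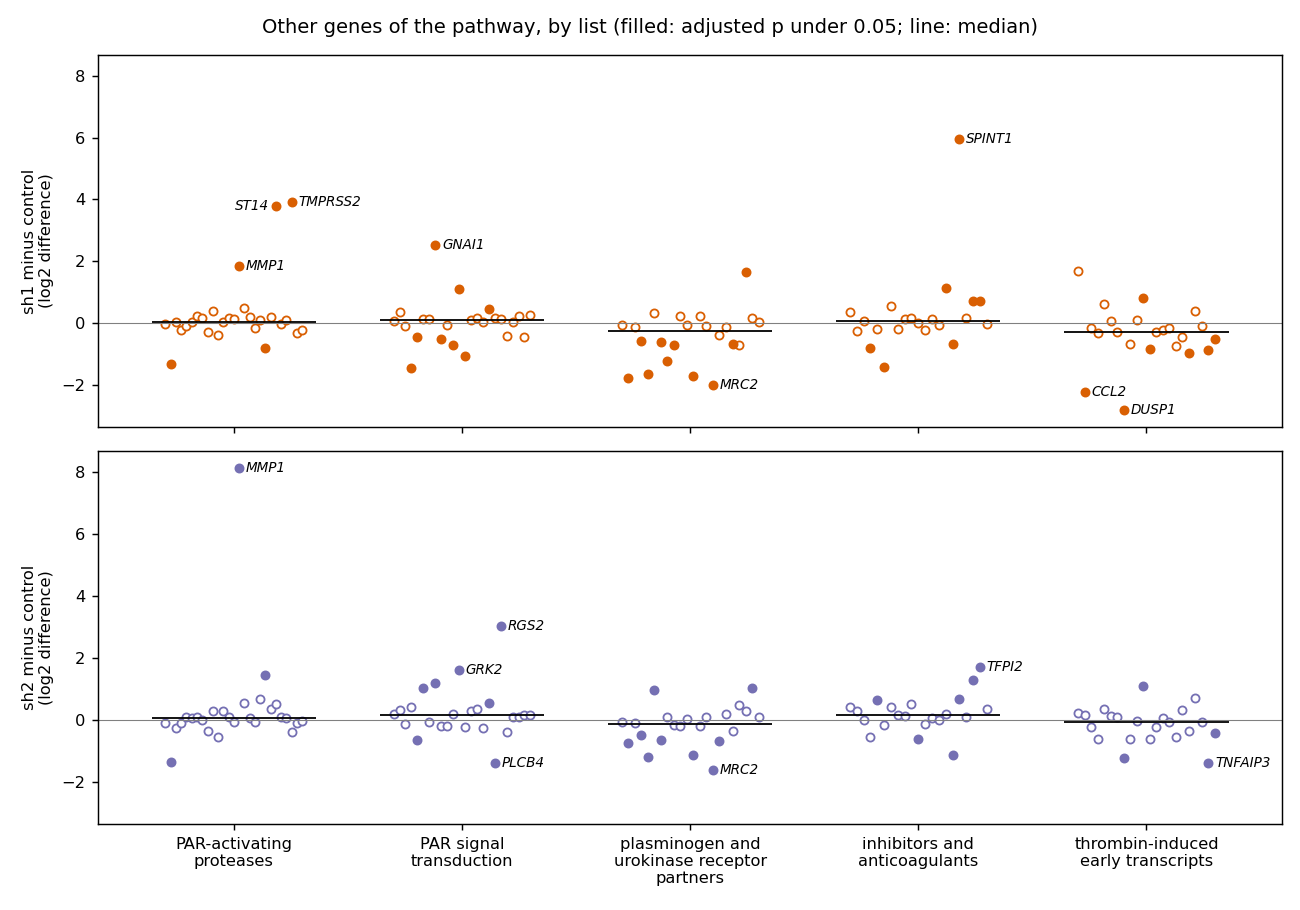
Log2 difference from the control of each measured gene of the 5 lists, in sh1 (upper panel) and sh2 (lower panel), with filled points at an adjusted p under 0.05 and a line at the median of each list. The list medians lie between -0.29 and 0.16, and MMP1 at 8.14 in sh2 is the highest point.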

How the data were processed

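Total RNA (100 ng) was labelled with biotin for whole-transcript arrays, per the labels' protocols. The authors made the deposited log2 signals with Transcriptome Analysis Console, per the submitters' processing notes. Its version is not given in the sources used here, nor are its settings. The log2 scale was read from the values (2.03 to 18.57). They were used as deposited, with gene names from the platform annotation (17709 of 21448 rows with 1 symbol). Where a gene had several rows, the row with the highest mean was used.

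Groups were compared with limma 3.58.1 in R 4.3.3 (lmFit and eBayes over 9 arrays), with Benjamini-Hochberg adjustment over all rows and a threshold of 0.05. The fit was tested on simulated data. The number of arrays limits the precision. Gene order and sequences came from RefSeq tables of GRCh38.p14. The members and lists were chosen with earlier results of these data known. List genes named in the text were up to 5 called the same way in both lines, ranked by the smaller of both differences, and up to 3 called in each line alone. TFPI, TFPI2, PLG, F2 and F7 were named whatever their call. Other scalings, filters, priors, sample sets, thresholds and a block by array number were tried, as were leaving out single arrays and a correction for neighbouring genes. Their use on the gene lists was chosen after seeing the data.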

Additional observations from a re-analysis of the deposited data

Results flagged for a closer look

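In the limma model, the direct test of sh2 minus sh1 passed (adjusted p under 0.05) for 11.3% of all rows. By this test, the differences of the shRNA lines from the control were themselves different for 28 of the measured members and list genes named above. Among the receptor and plasminogen activation genes these were F2RL2, higher in sh2 by 1.63 on the log2 scale (adjusted p = 4.78e-05, 3 of 3 sh2 arrays above all sh1 arrays), and PLAUR, higher by 1.11 (adjusted p = 0.000688, 3 of 3 arrays). Among the list genes, the log2 difference of sh2 from sh1 was positive for MMP1 (6.28), RGS2 (2.88), CCL2 (2.36), PRSS3 (2.25), ARRB1 (1.85), DUSP1 (1.58), ITGB1 (1.31), PROS1 (1.25), CD109 (1.02), TFPI2 (0.97), GNA12 (0.89), GNAQ (0.87), VLDLR (0.86), GRK5 (0.82), PROCR (0.82), ITGA5 (0.61), LRP8 (0.59) and TFPI (0.56). It was negative for SPINT1 (-5.31), TMPRSS2 (-4.32), ST14 (-3.28), PLCB4 (-1.58), SUSD2 (-1.37), GNAI1 (-1.36), SERPING1 (-0.96) and TNFAIP3 (-0.54). The adjusted p of these list genes was at most 0.0443. Some of them were named because they passed in 1 line alone, and PRSS3 for its opposite calls. A difference between the lines was thus partly built into their choice, and their number is not a result about the lists. PLCB4 in sh2 and SERPING1 in sh2 averaged under the lower quartile of the row means, so the sizes of their differences are uncertain. RGS2 in sh1 and both TMPRSS2 and ST14 in sh2 were low as well and may be near background.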

How the results depend on the processing

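Of 24 differences of the 8 genes (3 comparisons), each under 18 alternatives, 401 of 432 values kept the direction and the side of the threshold, 10 crossed it upwards, 0 lost a call and 21 changed sign, the last for differences that were not called. Leaving out single arrays left 3 members called in sh1, 4 in sh2 and 2 between the lines, and called rows ranged over 3044 to 4047, 2455 to 3587 and 1803 to 2271. With the array number as a replicate block the same numbers of members passed, with 3996, 3432 and 2364 rows. Same-numbered arrays deviated together at r = -0.0358 to 0.18, over 0.1 in 2 of 9 pairs, and 3 of 9 arrays correlated best with their own number, so the numbers were not used as pairs. The block ended the calls of TFPI2 in sh1 and PLGRKT in sh2. At an adjusted p under 0.01, 2425, 1921 and 1331 rows passed, and with a difference of at least 1, 1200, 966 and 755 rows passed, for sh1, sh2 and sh2 minus sh1, both being stricter. Neighbour correction turned F2RL3 to 0.11 in sh1, 0.21 in sh2 and 0.10 between the lines, and PLAU to 0.069 in sh1. Leaving out single arrays moved F2RL3 over -0.12 to 0.068 in sh1, -0.10 to 0.012 in sh2 and -0.12 to 0.072 between the lines, PLAU over -0.078 to 0.032 and PLAT over -0.0083 to 0.185 in sh1. Between the lines it moved F2R over -0.052 to 0.11, PLAT over -0.055 to 0.09 and SERPINE2 over -0.073 to 0.15. Among the gene lists, signal transduction in sh1 had 5 calls at 0.01 and 4 at a difference of at least 1 (5 to 8 without single arrays, the lowest without control array 2 or sh1 array 2). Partners had 6 at a difference of at least 1 in sh1 and 4 in sh2. Inhibitors had 4 at 0.01 and 3 at a difference of at least 1 in sh1, and 3 under either in sh2, and thrombin-induced transcripts had 2 at a difference of at least 1 in sh1. Proteases in sh2 had 5 with an intensity trend and robust prior and 5 with neighbour correction, against 3 (3 to 5 without single arrays, the highest without sh1 array 2 or sh2 array 3). Neighbour correction turned VEGFA to 0.35 and 0.37. Of 66 called list differences, 19 were lost at the same threshold under at least 1 alternative, those that changed sign included. Causes were not tested.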
